A study of Homo sapiens with 6 samples.

Results

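Transcript levels of MYC and of genes that build the ribosome were followed on 6 arrays of human leukemia cells. The set comprised 32 genes listed by symbol, and each gene was measured as the mean log2 value of the probe sets that the array annotation assigns to that symbol alone. 29 of the 32 were measured in this way, out of 22320 genes measured on the arrays, and they rested on 543 probe sets. The other 3, GNL3, NOP56 and DKC1, had 18, 21 and 24 probe sets, every one annotated with further symbols of small RNAs such as SNORD19B, SNORD57 and SNORA56 that lie in the same transcripts, and they were not analysed here.

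The arrays came from HEL and SET2, human lines labelled as acute myeloid leukemia. HEL grows with erythroid and megakaryocytic features, and SET2 is a megakaryoblastic line. Each line was transduced with lentivirus carrying a miR-125a sponge (a decoy RNA that is designed to soak up the microRNA), an shRNA against IGF1R (a cell surface receptor for IGF-1), or the backbone pLKO as control. All 6 cultures, controls included, were selected in puromycin for 96 h before total RNA was taken, and each gave 1 Human Gene 2.0 ST array. The 2 lines were therefore the only replication of a treatment, and the cells were bulk populations, in which less RNA per cell and fewer cells of a kind cannot be told apart. Every value below is a log2 level or a log2 difference, with error from 1 limma fit of treatment and cell line over all genes, and a gene was called where its p, adjusted by Benjamini-Hochberg over all genes, was under 0.05.

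Ribosomes are assembled in the nucleolus. RNA polymerase I transcribes a long precursor of the ribosomal RNAs, small nucleolar ribonucleoproteins (snoRNPs) guide its chemical modification, and a large assembly called the small subunit processome folds and cleaves it, after which separate sets of factors finish the small and the large subunit. MYC is a transcription factor that, together with its partner MAX, binds DNA at E-box motifs and is known to drive many of these genes in growing cells. MYC is a common effector of growth factor and kinase signalling in blood cells, and miR-125a is a microRNA expressed in blood stem cells and in myeloid leukemias.

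The sponge was directed at the microRNA whose mature sequences are shown here, from RefSeq (GRCh38.p14), because the labels do not say which arm it binds. The seed, bases 2 to 8 of each, is in capitals, and the seeds of the arms differ. The gene lies on the plus strand of chromosome 19, with the 5p arm at chr19:51693268-51693291 and the 3p arm at chr19:51693306-51693327.
hsa-miR-125a-5p: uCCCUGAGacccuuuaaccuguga
hsa-miR-125a-3p: aCAGGUGAgguucuugggagcc

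The canonical E-box, CACGTG, which is its own reverse complement, was looked for in the 300-base window around each gene's start (250 bases before it and 50 after). RefSeq promoters were matched for 26 of the 32 genes, and 9 of them, or 34.6%, held the motif, against 7.4% of all 27305 full-length promoters. The 9 were FBL, NOP14, WDR43, RRP9, UTP20, BYSL, LTV1, NOP2 and PES1. Among lists of other genes the share was 44.1% for 34 other small subunit factors and 32.4% for 37 other large subunit factors, but 14.3% for 7 other snoRNP and assembly factors and 9.1% for 11 other RNA polymerase I factors. It was 48.0% for 25 genes known to be induced by MYC outside ribosome biogenesis, 27.3% for 11 MYC network partners and 25.0% for 8 proliferation genes, and none of 4 MYC-repressed genes held it. These matches describe the letters in the window and do not show that MYC binds there. The stretches of 5 genes that the results below turn on are shown 5′ to 3′ on the strand of the gene, with the motif in capitals and up to 30 bases on each side. They lie at chr19:39846350-39846403 (minus strand) for FBL, chr4:2963377-2963421 (minus) for NOP14, chr3:51941875-51941939 (minus) for RRP9, chr12:101280065-101280130 (plus) for UTP20 and chr22:30591881-30591927 (minus) for PES1.
FBL: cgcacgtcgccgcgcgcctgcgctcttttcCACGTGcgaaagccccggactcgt
NOP14: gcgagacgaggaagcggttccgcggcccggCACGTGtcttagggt
RRP9: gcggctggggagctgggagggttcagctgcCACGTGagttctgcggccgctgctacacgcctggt
UTP20: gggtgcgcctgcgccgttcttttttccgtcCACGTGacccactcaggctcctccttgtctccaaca
PES1: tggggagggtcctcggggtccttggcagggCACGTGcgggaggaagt

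Array medians lay between 5.69 and 5.75. Over all genes, arrays of the same line correlated at 0.976 to 0.993 and arrays of different lines at 0.923 to 0.933. IGF1R, the target of the shRNA, was not measurably lower on the arrays carrying its label. It stood at 8.56 in HEL and 8.33 in SET2 under that label, against 8.63 and 8.32 in the controls (difference -0.03, SE 0.15, adjusted p = 0.97). The arrays are therefore called "labelled IGF1R shRNA" below. Of the erythroid, megakaryocytic and myeloid markers, GATA1 (9.96 to 10.43), ITGA2B (10.23 to 10.83) and PTPRC (9.12 to 10.25) were bright on all arrays, but MPO was dim on all (4.14 to 4.71), CD34 was dim in HEL (5.20 to 5.53) and GP9 was dim in SET2 (4.98 to 5.35). Erythroid HBG1 was brighter in SET2 (11.46 to 11.90) than in HEL (9.36 to 9.59), as were KLF1 and EPOR, while ALAS2 overlapped. Megakaryocytic ITGB3 was brighter in HEL (10.11 to 10.56) than in SET2 (7.84 to 8.39), as was GP1BA, while PF4 overlapped. Of the T and B cell markers, CD3D (3.78 to 4.02) and MS4A1 (3.66 to 3.92) were near the bottom of the scale, while PAX5 (5.08 to 5.63), CD2 (4.61 to 7.30, the higher values in HEL) and CD79A (6.07 to 7.10) were not. Among fibroblast, endothelial and epithelial markers, COL1A2 (4.40 to 4.78) and VWF (4.48 to 4.68) were dim on all arrays. KDR (8.25 to 8.48) and CDH5 (6.04 to 7.55) in HEL and CDH1 (7.80 to 8.08) in SET2 were not. Nor were COL1A1 (5.67 to 6.11) on all arrays and KRT18 (6.04 to 6.45) in HEL. EPCAM (4.90 to 5.80) and KRT8 (5.00 to 5.71) lay between. The HEL array labelled IGF1R shRNA stood apart from the other HEL arrays. Its change from the HEL control had an SD of 0.39 over all genes, beside 0.24 for the HEL sponge array (SET2, 0.30 and 0.22), and KIT and PTPRC read 8.53 and 9.12 there, against 9.70 and 10.13 in the HEL control.

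The levels of the 29 genes spanned a wide part of the scale. NCL, which encodes nucleolin, was the brightest at a mean of 10.33, followed by NOP58 (10.13) and DDX21 (10.06), and RRP9 was the dimmest at 6.17. MYC averaged 9.66. Probe sets differ in how well they bind, so these levels do not rank the genes by transcript number.

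**Figure D1:**
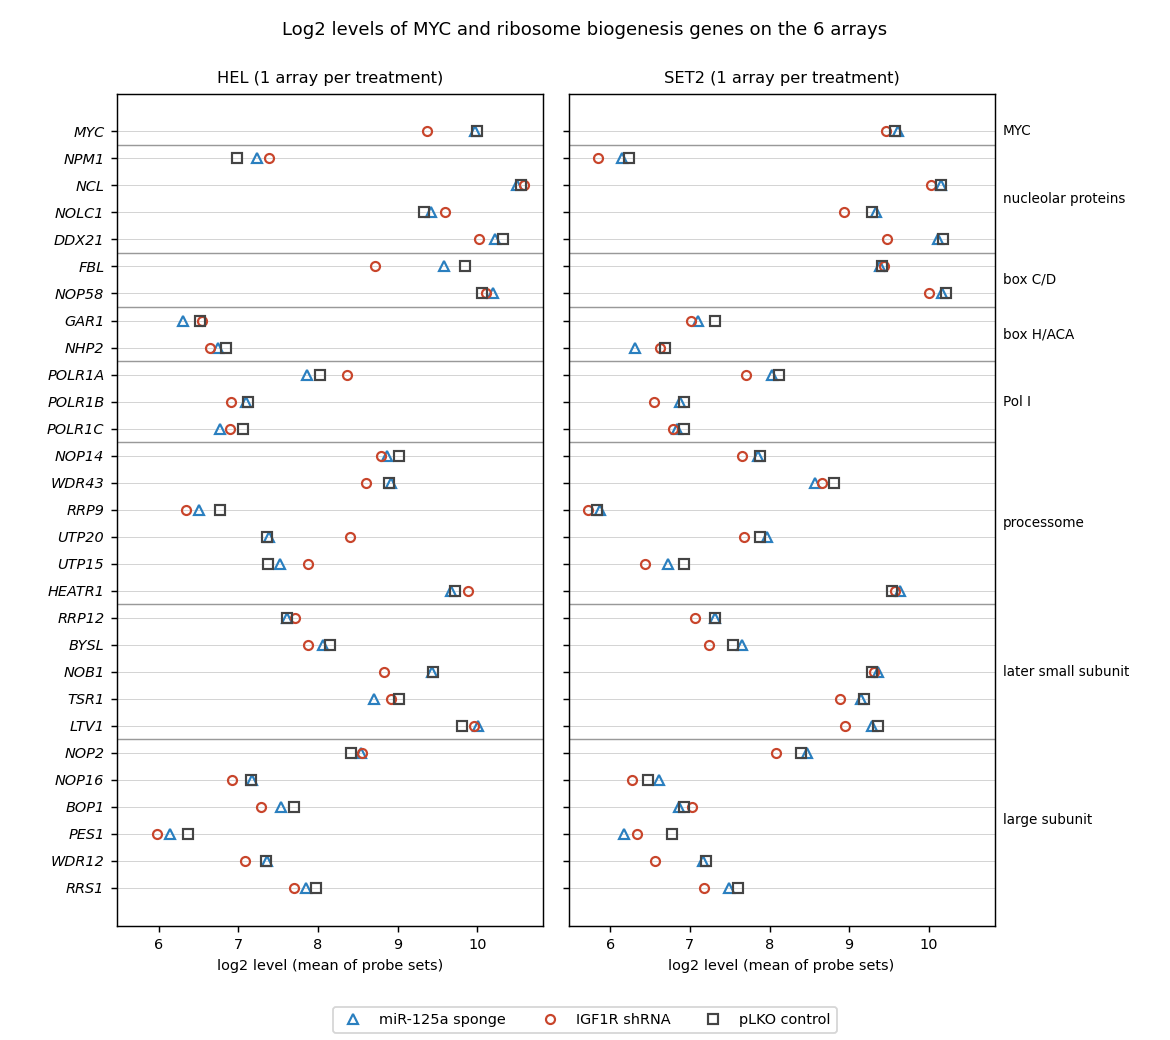
Log2 level of each of the 29 genes on each array (x axis, mean of its probe sets), with HEL on the left and SET2 on the right, and 1 symbol per treatment. In SET2 most circles (labelled IGF1R shRNA) lie left of the squares (pLKO control), and in HEL FBL (8.72 against 9.84) and UTP20 (8.40 against 7.36) are the widest apart.

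The first comparison asked how these genes stood on the arrays labelled IGF1R shRNA against the pLKO control. None of the 29 was called, as for all 22320 genes (percentage called 0%). With limma's unadjusted p under 0.05 as the mark, 4 of the 29 passed, beside 7.42% of all genes. The fitted difference was below 0 for 25 of the 29 genes, beside 52% of all genes, with a median of -0.16 beside -0.01 for all genes. Genes of similar level were those at or above the 10th percentile of the 29 genes' mean levels. Of these 7174 genes, 4174 were below 0, with a median of -0.045. The lines did not share the lower values of the 29 genes evenly. In HEL, 17 of 29 genes (58.6%) read below the control, beside 49.6% of all genes, with a median change of -0.20. In SET2, 25 of 29 (86.2%) did, beside 54.6% of all genes, with a median of -0.26. Counted over their 466 probe sets at or above the median level of all probe sets, HEL stood at the background. There 49.4% were lower, beside 49.9% of all probe sets as bright, with a median of 0.005. In SET2 74.0% were lower, beside 54.1%, with a median of -0.24. Genes with many probe sets weigh more in this count. The changes of the 29 genes spread more widely in HEL (SD 0.41) than in SET2 (SD 0.19). 14 genes were lower in both lines, or 48.3% beside 27% of all genes and 32.2% of the 7174 genes of similar level. HEATR1 alone was higher in both, beside 22.5% of all genes.

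MYC read 9.37 in HEL labelled IGF1R shRNA, against 9.99 in the HEL control. In SET2 it read 9.46 under that label, against 9.57 in the control. The shRNA-labelled array was the lower one in each line, by 0.62 in HEL and 0.12 in SET2, and all 7 MYC probe sets were lower in HEL and 5 of 7 in SET2. The fitted difference of -0.37 (SE 0.18, 95% interval -0.78 to 0.05) did not pass the test (adjusted p = 0.69).

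Of the multifunctional nucleolar proteins, DDX21 showed the largest difference. This RNA helicase acts in both transcription and processing of ribosomal RNA. It read 10.02 in HEL and 9.48 in SET2 on the arrays labelled IGF1R shRNA, against 10.32 and 10.18 in the controls. It was thus lower in both lines, in 17 of 18 probe sets in HEL and in all 18 in SET2, with a fitted difference of -0.50 (SE 0.17, adjusted p = 0.63). NCL, which binds nascent ribosomal RNA, was close to control, with differences of 0.04 in HEL and -0.12 in SET2. NOLC1, a chaperone of snoRNPs, differed by 0.26 in HEL and -0.35 in SET2. NPM1, the histone and ribosome chaperone nucleophosmin, read 7.38 in HEL and 5.85 in SET2 under the label, against 6.98 and 6.24 in the controls. It was thus above the control in one line and below it in the other. NPM1 rests on 5 probe sets and has many near-identical pseudogene copies, so its value is uncertain.

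Among the factors that mature the large subunit, all 6 had a fitted difference below 0 (median -0.28), and 4 were lower in HEL and SET2 alike. PES1, BOP1 and WDR12 encode the proteins of one complex, PeBoW, which is needed to process the precursor of the large subunit RNAs. WDR12 read 7.08 in HEL and 6.56 in SET2 on the arrays labelled IGF1R shRNA, against 7.35 and 7.20 in the controls. PES1 read 5.98 and 6.34, against 6.37 and 6.78. BOP1 read 7.28 and 7.03, against 7.70 and 6.93, so it was lower in HEL and slightly higher in SET2. The fitted differences were -0.46 for WDR12 (SE 0.16, adjusted p = 0.64), -0.42 for PES1 (SE 0.16, adjusted p = 0.65) and -0.16 for BOP1 (SE 0.18, adjusted p = 0.86). Over probe sets at or above the median level of all probe sets, WDR12 was lower in 14 of 15 in HEL and in all 15 in SET2, and its fitted difference was -0.77. PES1 was lower in 10 of 11 such probe sets in each line, and its fitted difference was -0.64. RRS1, which helps to place the 5S particle in the large subunit, read 7.70 in HEL and 7.18 in SET2, against 7.97 and 7.60 in the controls (difference -0.35, SE 0.14, adjusted p = 0.67). It rests on 3 probe sets. The other 2 members of the group were the RNA methyltransferase gene NOP2 (0.14 in HEL, -0.30 in SET2) and NOP16 (-0.24 and -0.21).

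FBL and UTP20 were far from control in HEL and near it in SET2. They are singled out after their values were seen. FBL encodes fibrillarin, the methyltransferase of the box C/D snoRNPs. It read 8.72 in HEL labelled IGF1R shRNA against 9.84 in the HEL control, and 9.43 in SET2 against 9.41. All 8 of its probe sets were lower in HEL, while in SET2 the labelled array and the control were level. UTP20, a scaffold of the processome, read 8.40 in HEL under the label against 7.36 in the control, and 7.68 in SET2 against 7.88. It was higher in HEL in 46 of 47 probe sets and slightly lower in SET2. Neither was called over both lines (FBL -0.55, SE 0.27, adjusted p = 0.70; UTP20 0.42, SE 0.31, adjusted p = 0.77). In a fit without the SET2 array of that label both passed, FBL at -1.06 (adjusted p = 0.030) and UTP20 at 1.06 (adjusted p = 0.027), with 729 genes called in all. That fit holds 1 array of the label and assumes that it varies like the others, and the HEL array it rests on is the one that stood apart.

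The other box C/D protein measured, NOP58, was closer to control (0.05 in HEL, -0.22 in SET2). Of the box H/ACA proteins, whose particles guide pseudouridylation, GAR1 differed by 0.03 in HEL and -0.30 in SET2, and NHP2 by -0.20 and -0.06. All 3 RNA polymerase I subunits measured were below control in SET2. POLR1B, the second largest catalytic subunit, was at 6.91 in HEL and 6.55 in SET2 under the label, against 7.12 and 6.93 in the controls. POLR1C, a subunit shared with RNA polymerase III, differed by -0.16 in HEL and -0.13 in SET2. POLR1A, the largest subunit, read 8.36 in HEL and 7.70 in SET2 under the label, against 8.03 and 8.12 in the controls. Its direction thus differed between the lines.

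In the small subunit processome the 6 measured genes had fitted differences of -0.28 to 0.42. RRP9, a U3 snoRNP protein, was lower in both lines (-0.43 in HEL, -0.12 in SET2), as were NOP14 (-0.23 in each) and WDR43 (-0.30 and -0.15). UTP15, which links the processome to transcription of the ribosomal genes, read 7.87 in HEL and 6.44 in SET2 under the label, against 7.37 and 6.92 in the controls. HEATR1 differed by 0.15 and 0.02, the smallest SET2 change in the group. The factors that act later on the small subunit were below 0 in the fit in 5 of 5 cases. BYSL differed by -0.27 in HEL and -0.30 in SET2, and TSR1 by -0.10 and -0.31. NOB1, the nuclease that makes the final cut of the small subunit RNA, read 8.83 in HEL against 9.44, with all 10 probe sets lower, and 9.31 in SET2 against 9.29. LTV1 (0.15 and -0.41) and RRP12 (0.10 and -0.26), both linked to export of the small subunit, were above control in HEL and below it in SET2.

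**Figure D2:**
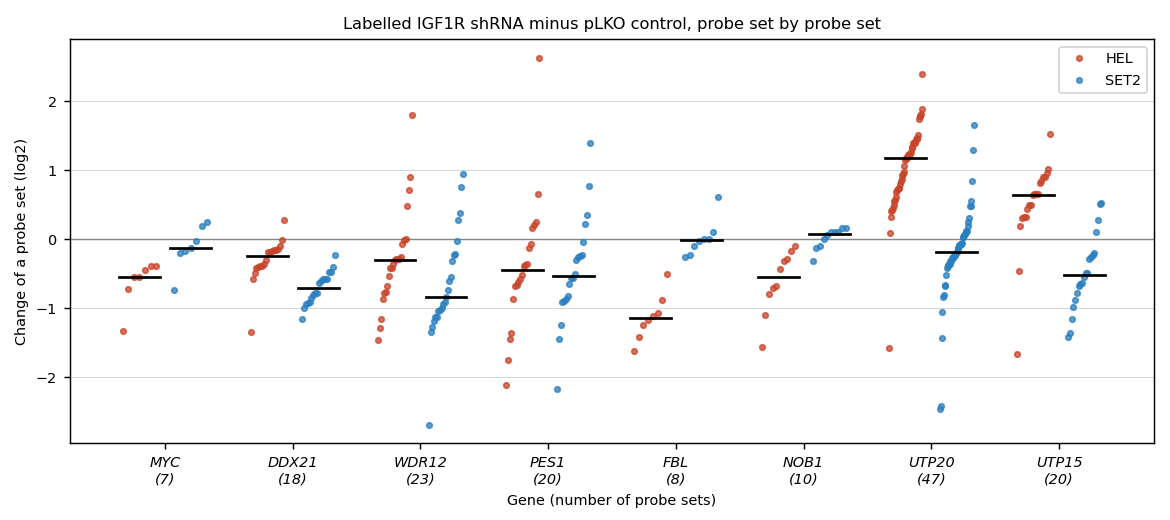
Change of each probe set (dots, log2, labelled IGF1R shRNA minus pLKO control) of 8 genes, with HEL and SET2 side by side and the median as a bar. DDX21 and WDR12 lie mostly below 0 in both lines, with the larger change in SET2, while the 8 FBL probe sets are below 0 and 46 of the 47 UTP20 probe sets above 0 in HEL.

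The remaining ribosome biogenesis genes were taken from 4 further lists with 103 measured genes, also chosen with earlier results known. None was called. Under the IGF1R shRNA label 60 of the 103 (58.3%) read below the control in HEL, and 94 (91.3%) in SET2. 53 (51.5%) were lower in both lines, beside 27% of all genes and 32.2% of those of similar level. 2 were higher in both, beside 22.5% of all genes, and the median fitted difference was -0.16. Large subunit factors were the most uniform, with 39 of 41 below 0 in the fit and 40 of 41 in SET2. Among them NOC2L differed by -0.52, the RNA kinase NOL9 by -0.51 and WDR74 by -0.45 (adjusted p = 0.66, 0.62 and 0.64). Of the other small subunit factors 20 of 40 were below control in HEL and 37 of 40 in SET2, with the RNA acetyltransferase NAT10 at -0.46, and DDX10 and RIOK1 both at -0.39. The other RNA polymerase I factors had 8 of 11 below 0. RRN3, the initiation factor that brings the polymerase to the ribosomal promoter, differed most (-1.40 in HEL, -0.34 in SET2, fitted -0.87, adjusted p = 0.62). Of the other snoRNP and assembly factors 7 of 11 were below 0, with the ATPase RUVBL1 at -0.41 (-0.53 and -0.30). 

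The share of lower genes in SET2 has to be read beside the array itself. Among the 7174 genes of similar level, 48.9% were below control in HEL and 65.7% in SET2, with medians of 0.01 and -0.10. Across all genes the change under the IGF1R shRNA label had a Spearman correlation with mean level of -0.01 in HEL and -0.21 in SET2, a description over genes of single arrays. Brighter genes tended to read lower on that SET2 array in general. The part of this gradient in the ribosome biogenesis values was not tested.

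**Figure D3:**
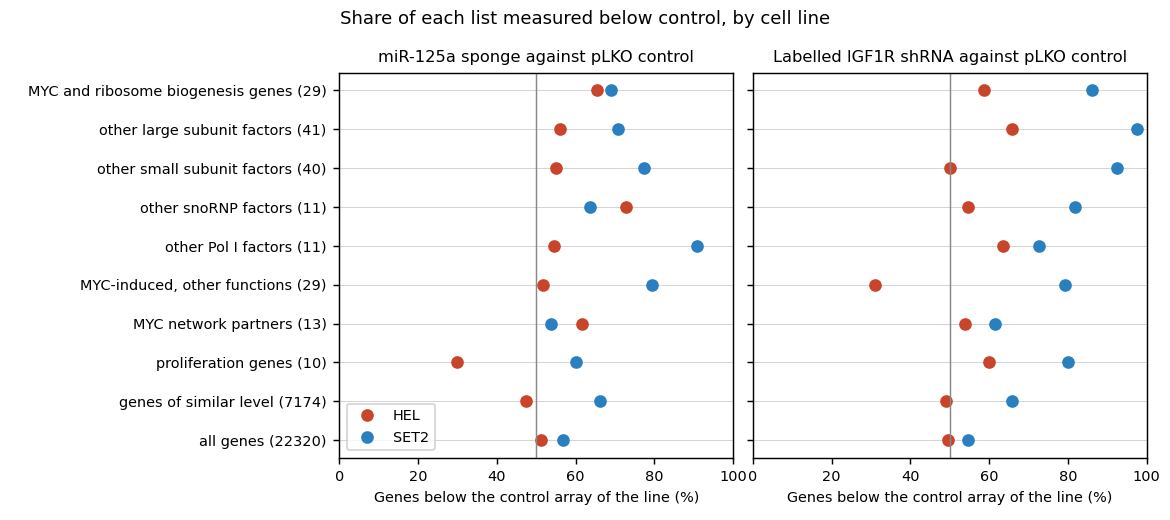
Percentage of genes in each list (number measured in parentheses) that read below the control array of the same line, for the miR-125a sponge (left) and the label IGF1R shRNA (right). On the right, the SET2 share is 86.2% for MYC and ribosome biogenesis genes and 72.7% to 97.6% for the 4 other ribosome biogenesis lists. It is 65.7% for genes of similar level and 54.6% for all genes. The MYC-repressed genes are not plotted.

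In the wider MYC pathway and the proliferation genes, most genes read below control in SET2 under the label, and HEL was mixed. The SET2 shares were 61.5% of MYC network partners, 79.3% of MYC-induced, 83.3% of MYC-repressed and 80% of proliferation genes. Genes of similar level stood at 65.7%. In HEL the shares were 53.8%, 31%, 50% and 60%, beside 48.9%. Of 13 MYC network partners none was called and the median was 0.01. MAX, the obligate partner of MYC, differed by -0.73 in HEL and -0.56 in SET2 (fitted -0.65, adjusted p = 0.62). MXD1, which competes with MYC for MAX, differed by 0.86 and 0.25 (fitted 0.55, adjusted p = 0.63), and MXD3 by -0.33 and -0.53. Of 29 MYC-induced genes outside ribosome biogenesis, 9 were below control in HEL and 23 in SET2, and none was called. In the fit 19 were below 0, with a median of -0.08. The hexokinase gene HK2 differed by -0.28 in HEL and -0.84 in SET2, and SHMT2, a mitochondrial enzyme of one-carbon metabolism, by -0.93 and -0.06. None of 6 genes known as repressed by MYC was called, and 5 of them were below 0 in the fit. CDKN1A, the inhibitor p21, was the exception at 0.34 (0.39 and 0.28). Among 10 proliferation genes 9 were below 0 in the fit and none was called. The mitotic kinase gene AURKA differed by -0.99 in HEL and -0.67 in SET2 (fitted -0.83, adjusted p = 0.56).

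The second comparison set the miR-125a sponge against the pLKO control. Differences were smaller than under the shRNA label, and none of the 29 genes was called (percentage called over all genes 0%). 1 gene, PES1, had an unadjusted limma p under 0.05, beside 1.85% of all genes. The median fitted difference was -0.03 for the 29 genes and -0.02 for all genes. 18 genes were below 0 in the fit, beside 55% of all genes and 4138 of the 7174 genes of similar level. In HEL 19 genes (65.5%) read below the control, beside 51.3% of all genes, and in SET2 20 genes (69.0%), beside 56.9%. Of genes of similar level 47.3% and 66.3% did, so the SET2 share is near that of genes as bright. The change in SET2 correlated with mean level here too (Spearman 0.07 in HEL and -0.125 in SET2, over all genes). 14 were lower in both lines (48.3%, beside 29.6% of all genes and 33.3% of those of similar level) and 4 were higher in both (13.8%, beside 21.1%). The SD of the changes over the 29 genes was 0.15 in HEL and 0.16 in SET2.

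MYC read 9.97 in HEL and 9.61 in SET2 with the sponge, against 9.99 and 9.57 in the controls. The sponge and control arrays were level in each line, with a fitted difference of 0.01 (SE 0.18, 95% interval -0.41 to 0.43). Differences within that interval were not detectable with these arrays.

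PES1 read 6.14 in HEL and 6.17 in SET2 with the sponge, against 6.37 and 6.78 in the controls. It was lower in both lines (fitted -0.42, SE 0.16, adjusted p = 1). Over its 11 brighter probe sets the fitted difference was only -0.19, and 9 were lower in HEL and 6 in SET2. The 2 other genes of the PeBoW complex were close to control, WDR12 at -0.01 and BOP1 at -0.12. Both measured box H/ACA genes were lower in both lines. NHP2 read 6.75 in HEL and 6.31 in SET2, against 6.85 and 6.69, and GAR1 read 6.30 and 7.10, against 6.52 and 7.32. Their fitted differences were -0.23 and -0.22 (SE 0.16 each, adjusted p = 1 for both), and over brighter probe sets they were -0.05 and -0.08. All 3 RNA polymerase I subunits were lower in both lines, with POLR1C at -0.29 in HEL and -0.08 in SET2. The 4 genes higher in both lines were NOP2 (0.12 in HEL, 0.09 in SET2), NOP16 (0.02 and 0.13), NOLC1 (0.10 and 0.04) and UTP20 (0.02 and 0.09). Each of these changes was smaller than the standard error of its fitted difference.

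**Figure D4:**
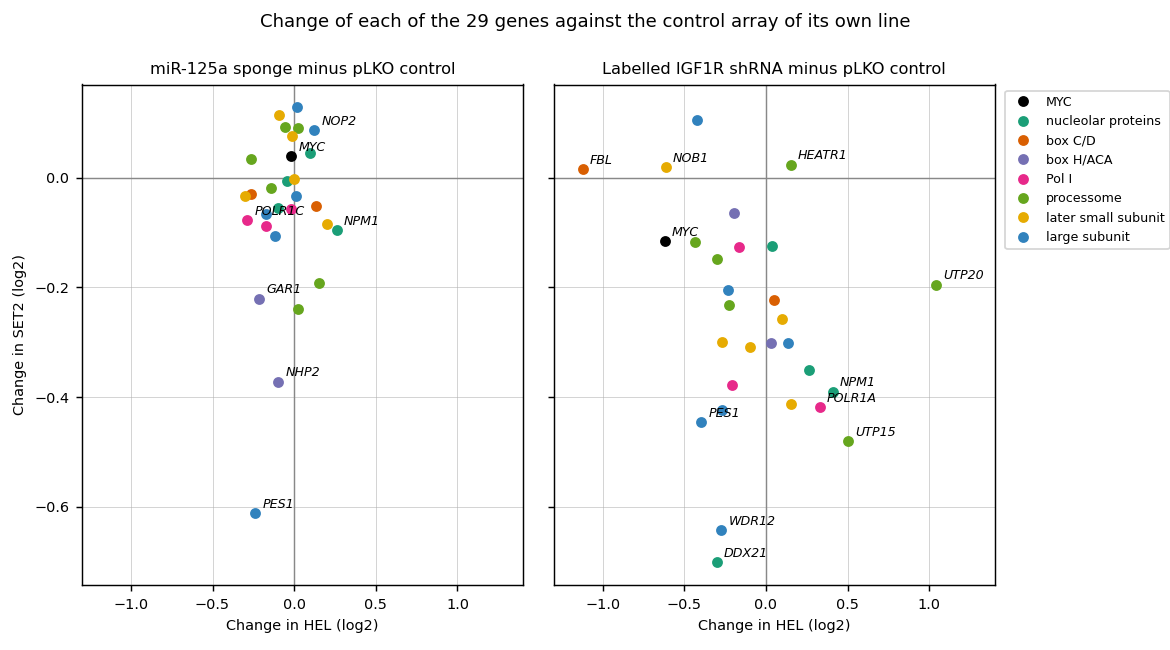
Change of each gene against the control array of its own line, HEL on the x axis and SET2 on the y axis (log2), for the miR-125a sponge (left) and the label IGF1R shRNA (right), coloured by role. With the sponge the points gather near 0 apart from PES1 and NHP2 in SET2, and under the shRNA label 25 of 29 lie below 0 in SET2 while HEL changes run from -1.12 (FBL) to 1.04 (UTP20).

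Among the 103 other ribosome biogenesis genes none was called with the sponge, and 1 had an unadjusted limma p under 0.05, beside 1.85% of all genes. Their median was -0.06, with 66 below 0 in the fit, beside 55% of all genes. In both lines 45 (43.7%) were lower, beside 29.6% of all genes and 33.3% of those of similar level. DHX37, a helicase gene of the processome, differed by -0.33 (-0.36 in HEL, -0.30 in SET2). ZNRD1, an older symbol for an RNA polymerase I subunit, differed by -0.36 (-0.30 and -0.43), and PIH1D1, a snoRNP assembly factor, by -0.31 (-0.26 and -0.37). RRP7A was on the other side at 0.25 (0.15 and 0.34). Of the 29 MYC-induced genes 23 were below 0 in the fit, beside 55% of all genes, with a median of -0.04. IMPDH2 of guanine nucleotide synthesis was at -0.22 and ODC1 of polyamine synthesis at -0.16. None of the 13 MYC network partners, 6 MYC-repressed genes or 10 proliferation genes was called, and their medians were -0.04, -0.15 and 0.01.

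Set against the label IGF1R shRNA, the sponge arrays read higher for most of the genes. The differences themselves use no control array, although the control arrays enter their error through the common fit. The arrays compared are shared with the preceding comparisons. None of the 29 was called (percentage called over all genes 0%), and 2 genes, WDR12 and DDX21, had an unadjusted limma p under 0.05, beside 6.85% of all genes. The median was 0.12, beside -0.01 for all genes, and 21 genes were above 0 in the fit, beside 48.8% of all genes. Of the 7174 genes of similar level 3882 were above 0, with a median of 0.023. 12 genes were higher with the sponge in both lines (41.4%, beside 25.1% of all genes), and none was lower in both, beside 26.1% of all genes (of genes of similar level, 30% were higher and 21.5% lower in both). In HEL, 17 of 29 were higher with the sponge, beside 47.6% of all genes, and in SET2 24 of 29, beside 51%. Of the 7174 genes of similar level 3617 were higher in HEL and 4155 in SET2. MYC differed by 0.60 in HEL and 0.15 in SET2 (fitted 0.38, SE 0.18, adjusted p = 0.74). WDR12 differed by 0.28 and 0.61 (fitted 0.45, SE 0.16, adjusted p = 0.72) and DDX21 by 0.20 and 0.64 (fitted 0.42, SE 0.17, adjusted p = 0.72). NOB1 differed by 0.60 and 0.06 (fitted 0.33, SE 0.19, adjusted p = 0.77). Without the SET2 array labelled IGF1R shRNA, FBL (0.92, adjusted p = 0.045) and UTP20 (-0.999, adjusted p = 0.033) were called, among 670 genes. Among the 103 other ribosome biogenesis genes 73 were higher with the sponge in the fit, beside 48.8% of all genes, and none was called. RRN3 differed by 0.74 and NOC2L by 0.58, and, outside ribosome biogenesis, MAX by 0.52, MXD1 by -0.54 and AURKA by 0.75.

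The last comparison set HEL against SET2 over the 3 treatments. Here 11 of 29 genes were called, 10 higher and 1 lower in HEL, beside 24.5% of all genes (11.6% higher and 13% lower). Of the 7174 genes of similar level 37.4% were called, 16.7% higher and 20.7% lower, so the members' share of 37.9% is near that of genes as bright as they are, and the directions differ (34.5% higher and 3.45% lower). The median difference was 0.26 for the 29 genes, -0.02 for genes of similar level and 0.01 for all genes, and 22 of 29 were above 0, beside 51% of all genes. The 3 arrays of the lines did not overlap for 14 genes, 13 higher and 1 lower in HEL, beside 39.2% of all genes (19.2% higher and 20% lower). The members' share of 48.3% was below the 54.9% of genes of similar level (24.9% higher and 30% lower). Within each line the 3 cultures carried different constructs, so these p-values measure the spread between 3 cultures of 2 lines and say nothing of other lines.

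MYC itself was not called. It read 9.97, 9.37 and 9.99 in HEL with the sponge, the IGF1R shRNA label and the control, against 9.61, 9.46 and 9.57 in SET2. The sponge and control arrays of HEL lay above all 3 SET2 arrays and the shRNA-labelled one below them (difference 0.23, SE 0.14, adjusted p = 0.32).

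NPM1 read 7.24, 7.38 and 6.98 in HEL with the sponge, the shRNA label and the control, against 6.15, 5.85 and 6.24 in SET2. NOP14, a processome protein, read 8.87, 8.79 and 9.01 in HEL, against 7.86, 7.65 and 7.88 in SET2. All HEL arrays were above all SET2 arrays for both genes. The differences were 1.12 for NPM1 (SE 0.17, adjusted p = 0.0040) and 1.10 for NOP14 (SE 0.12, adjusted p = 0.00092). NOP14 was higher in HEL in each of its 19 brighter probe sets. NPM1 was higher in HEL in all 5 of its probe sets, 3 of them without overlap. NPM1 and NOP14 were called under every alternative setting run for this comparison. Those settings draw on the same probe sets, so the value of NPM1 stays uncertain because of its pseudogene copies.

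2 further processome genes were called. UTP15 read 7.52, 7.87 and 7.37 in HEL, against 6.73, 6.44 and 6.92 in SET2 (0.89, SE 0.19, adjusted p = 0.017). RRP9 read 6.51, 6.34 and 6.77, against 5.87, 5.72 and 5.84 (0.73, SE 0.13, adjusted p = 0.0069). Neither overlapped between the lines, although the difference of UTP15 ran from 0.45 in the controls to 1.43 under the shRNA label. Probe set by probe set, RRP9 was higher in HEL in 14 of 15, with a median difference of 0.70, although the fit on the median of the probe sets of each array gave 0.20. HEATR1 (0.17), WDR43 (0.13) and UTP20 (-0.13) were not called.

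Of the later small subunit factors LTV1 averaged 9.93 ± 0.10 in HEL and 9.20 ± 0.22 in SET2 (SD, n = 3 each), and BYSL 8.03 ± 0.14 and 7.47 ± 0.21. The differences were 0.73 (SE 0.15, adjusted p = 0.012) and 0.56 (SE 0.12, adjusted p = 0.017). LTV1 was higher in HEL in all 12 probe sets and BYSL in all 10. RRP12 did not overlap between the lines either but missed the threshold (0.41, adjusted p = 0.066). NOB1 (-0.08) and TSR1 (-0.20) were below 0 and not called.

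Among the large subunit factors NOP16 averaged 7.09 ± 0.14 in HEL and 6.45 ± 0.17 in SET2, BOP1 7.51 ± 0.21 and 6.94 ± 0.09, and RRS1 7.84 ± 0.13 and 7.42 ± 0.22 (SD, n = 3 each). All 3 were called, at 0.63 (SE 0.12, adjusted p = 0.0086), 0.57 (SE 0.14, adjusted p = 0.029) and 0.42 (SE 0.12, adjusted p = 0.044). Probe set by probe set, BOP1 was higher in HEL in 18 of 21, with a median difference of 0.59, although the fit on per-array medians, which can fall on different probe sets, gave 0.14. PES1, of the same complex as BOP1, was lower in HEL under each treatment (-0.03 to -0.41, fitted -0.27, adjusted p = 0.21), and WDR12 was higher under each (0.15 to 0.52, fitted 0.29, adjusted p = 0.17). The fitted differences of the complex's genes thus differed in sign, but only that of BOP1 was called.

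NCL averaged 10.55 ± 0.04 in HEL and 10.11 ± 0.07 in SET2 (SD, n = 3 each) and was called at 0.44 (SE 0.12, adjusted p = 0.038), with 19 of 20 probe sets higher in HEL. NOLC1 (0.27) and DDX21 (0.26) were not called. GAR1 was the single gene called lower in HEL. It averaged 6.45 ± 0.14 in HEL and 7.14 ± 0.16 in SET2, a difference of -0.69 (SE 0.13, adjusted p = 0.0091), with 8 of 9 probe sets lower, 7 of them without overlap, and a median probe-set difference of -0.78. The fit on per-array medians gave -0.03. NHP2, of the same particle, was higher by 0.21 (adjusted p = 0.32). FBL (-0.02), NOP58 (0.00) and the 3 polymerase subunits (0.06 to 0.26) were not called.

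**Figure D5:**
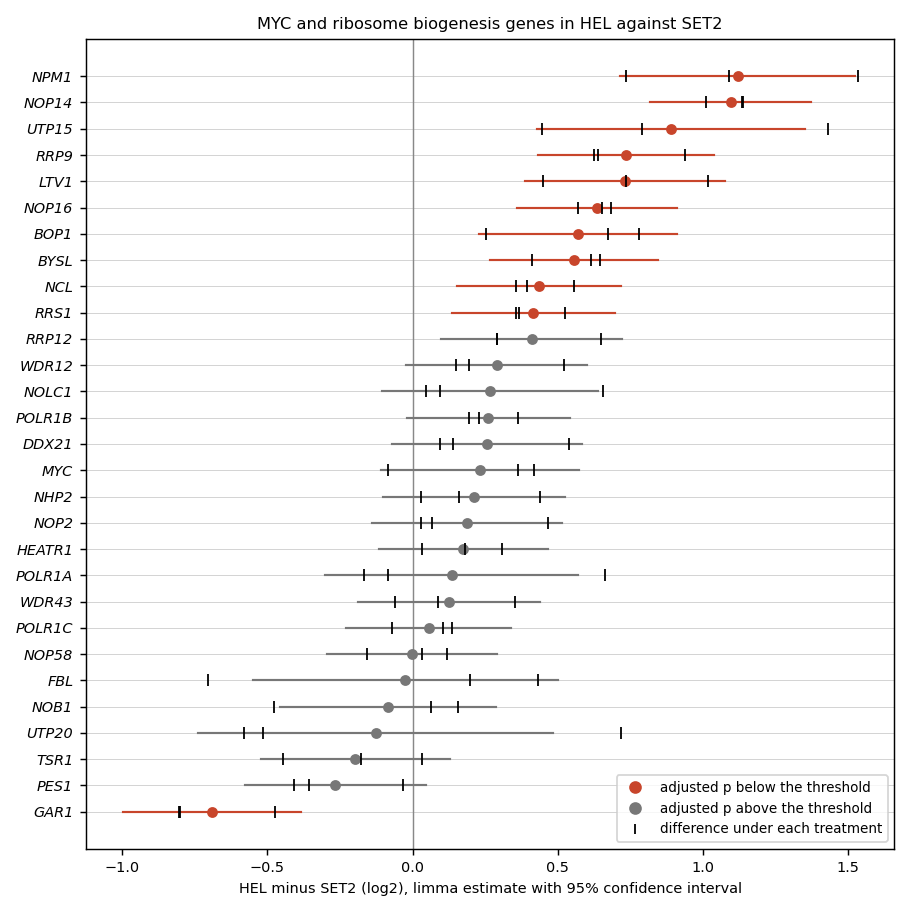
HEL minus SET2 (log2) for each of the 29 genes, as the limma estimate (dot) with its 95% confidence interval (line) and the difference under each of the 3 treatments (ticks), sorted by size. 10 genes are called above 0, led by NPM1 (1.12) and NOP14 (1.10), and GAR1 (-0.69) is called below 0.

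The genes were set beside the genes of their chromosomes, as a description with no test. NPM1, UTP15, NOP16 and NHP2 lie on chromosome 5, where the 397 genes at or above the median level differed by a median of 0.27 between HEL and SET2. BOP1, RRS1 and MYC lie on chromosome 8, with a median of 0.22 over 327 such genes. On chromosome 4, home of NOP14 and GAR1, the median of 320 genes was -0.07, and on chromosome 6, home of LTV1, BYSL and POLR1C, it was 0.03 over 544 genes. It was 0.055 over 586 genes of chromosome 3, home of RRP9. On chromosome 2, home of NCL, it was 0.062 over 696 genes. Copy number was not measured, and its part in these differences was not tested.

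The other ribosome biogenesis genes held calls in both directions. Of 103, 29 were called higher and 11 lower in HEL, with a median of 0.14. For this list and those below, the background is 11.6% of all genes called higher and 13% called lower. Among genes of similar level it is 16.7% and 20.7%. SENP3, a SUMO protease of the large subunit pathway, was higher by 1.48 (adjusted p = 0.0050), the export adaptor NMD3 by 1.16 (adjusted p = 0.0010) and EIF6, which keeps the new large subunit apart from the small one, by 1.04 (adjusted p = 0.0011). TTF1, the termination factor of RNA polymerase I, was lower by 1.05 on the log2 scale and TWISTNB, a polymerase I subunit, by 0.90 (differences of -1.05 and -0.90, adjusted p = 0.0023 and 0.0054), while POLR1E was higher by 0.74 (adjusted p = 0.0057). Of the MYC network MYCN was higher by 1.11 (adjusted p = 0.0052), and MXD1 (-0.88, adjusted p = 0.0070) and the coactivator TRRAP (-0.71, adjusted p = 0.0084) were lower. Of 29 MYC-induced genes 8 were called higher and 2 lower, led by EIF4EBP1 (1.56), the glycolytic enzyme gene ENO1 (1.13) and IMPDH2 (1.10). Of the MYC-repressed genes GADD45A was higher (1.19) and CDKN1A lower (-0.44), and of the proliferation genes only BUB1 was called (0.62).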

How the data were processed

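The authors' deposited table of log2 probe-set values covered the 6 arrays. The submitters' processing notes name Affymetrix Expression Console. Its version, summarisation, background correction, normalization and genome build are not given in the sources used here, and values between 1.61 and 13.99 fit a log2 scale. Of 352859 probe sets, 259224 listed exactly 1 symbol, and their mean per symbol gave 22320 genes. Those with several symbols (13116) were left out. No detection call against background was made.

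Gene averages were fitted with limma's lmFit and eBayes (version 3.58.1, R version 4.3.3). The model held cell line beside treatment, and the procedure was tested on simulated data. There were 2 residual and 4.78 prior degrees of freedom. Two-sided p-values were adjusted over all genes (Benjamini-Hochberg). Nothing says that arrays came from separate experiments, so p-values measure the spread between these arrays, whose small number limits precision. The replicate number stands for the cell line. Deviations of the HEL arrays from the means of their treatments correlated at 0.746 to 0.884 over genes. With 1 array per line these deviations restate the difference between the lines, so the correlations do not check a pairing. No test of a difference in response between lines was possible with 1 array each.

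The members, the gene lists and the tests were chosen with earlier results of these data known. Genes named were MYC, each member called, the 4 largest differences in each direction with the same sign in both lines, and up to 3 genes per further list. Members with changes of opposite sign in the lines, each at least 0.3 in size, were also named. FBL, UTP20, NOB1, RRS1 and other members given to complete a group were named after their values were seen. Symbols were matched to RefSeq (GRCh38.p14) for chromosomes and promoters. Alternatives were the summary of probe sets, normalization, a filter on dim genes, the variance prior, the arrays fitted, the line term and each array left out. Tables and plots used Python 3.11.15, pandas 2.3.3, matplotlib 3.10.9 and the R package data.table (version 1.17.8).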

Additional observations from a re-analysis of the deposited data

Results flagged for a closer look

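4 results were picked out because a gene differed one way in HEL and the other way in SET2 in the same comparison, each time by at least 0.3 on the log2 scale. With 1 array per line and treatment the difference between the lines was not tested. On the arrays labelled IGF1R shRNA, set against the pLKO control, NPM1 differed by 0.41 in HEL and -0.39 in SET2, POLR1A by 0.33 and -0.42, and UTP15 by 0.50 and -0.48. With the miR-125a sponge set against the IGF1R shRNA label, POLR1A differed by -0.50 in HEL and 0.33 in SET2. The POLR1A results share the labelled arrays. Among probe sets at or above the median level, NPM1 was higher in HEL and lower in SET2 in all 4. UTP15 was higher in 15 of 16 in HEL and lower in 13 of 16 in SET2. POLR1A was higher in 31 of 36 in HEL and lower in 31 of 36 in SET2.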

How the results depend on the processing

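No member was called for a treatment under any alternative (other probe-set summaries, normalization, a filter on dim genes, another prior, fewer arrays), except that 2 were called without the SET2 array labelled IGF1R shRNA, both for that label against control and for the sponge against that label (0 to 2 over the arrays left out). Without the replicate block, that is, without the cell line term, the counts were 0 and the medians -0.158, -0.026 and 0.116. The medians could not move, because every treatment holds both lines in equal number and the fitted differences are then the same without the term. The difference between the lines is left in the error of such a fit, so no conclusion is drawn from its counts. For the label IGF1R shRNA against control the members' median was -0.22 when genes were summarised by their median probe set, and -0.263 to -0.158 with an array left out. For the sponge against control it was -0.09 for the median probe set, -0.095 for the brightest and -0.048 for brighter ones. It was -0.011 after quantile normalization, -0.017 with centred arrays, and -0.096 to 0.018 with an array left out, so its direction is not settled. The members called for HEL against SET2 numbered 2 for the median probe set (NPM1 and NOP14) and 6 for the brightest. They numbered 3 to 10 with an array left out, with 3 when either sponge array and 4 when either control array was left out. For HEL against SET2, leaving out either array of a treatment gives the same fit, because the treatment term takes up its other array. In the treatment comparisons a lone remaining array is assumed to vary like the others.

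Named genes of the treatment comparisons, none called over all arrays, changed sign as follows. For the label IGF1R shRNA against control, POLR1A was 0.17, 0.275 and 0.053 for the median, brightest and brighter probe sets, NPM1 was -0.065 and UTP15 -0.23 for the brightest, and NPM1 was -0.247 for brighter ones. With an array left out, POLR1A ran from -0.438 to 0.35, NPM1 from -0.301 to 0.319, UTP15 from -0.394 to 0.417, HEATR1 from -0.013 to 0.189 and UTP20 from -0.211 to 1.057. For the sponge against control, NOP2 was -0.1, -0.105 and -0.032 (median, brightest, brighter), NOP16 -0.24 and -0.048 (median, brighter) and GAR1 0.11 (median). With an array left out, MYC ran from -0.129 to 0.15, NOP2 from -0.014 to 0.223, NOLC1 from -0.096 to 0.236 and UTP20 from -0.284 to 0.399. For the sponge against the label, POLR1A ran from -0.48 to 0.309, FBL from -0.103 to 0.918 and UTP20 from -0.999 to 0.269. For HEL against SET2, values with either array of a treatment left out are the same and were counted separately. Of 182 values of genes named for HEL against SET2 under these settings, 129 left the call as it was and 53, of 9 genes, lost it, and none changed sign. The cause of these changes was not tested.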
